A study of Mus musculus with 15 samples.

Results

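M3 knockdown testis was compared with vector control testis in 6 of the 15 libraries of the series, 3 labelled M3 and 3 labelled MNC, and the libraries were taken by these labels alone. RNA of whole testis from ICR mice, an outbred stock, was sequenced in 5 groups of 3 libraries. In the M3 group, testes of 5-week-old males had received lentivirus carrying a mixture of 3 shRNAs against different positions of Chrm3, the gene of the muscarinic acetylcholine receptor M3. In the MNC group the same kind of virus carried a control shRNA (shNC), so that both groups shared the lentivirus and the injection, and testes were collected 10 days later per the study's methods. The M1 and M5 groups received shRNAs against Chrm1 and Chrm5, and the Con group is labelled only as a control. Which cells of the testis the virus entered, and in which share of them, was not analysed here. The labels do not say whether the 3 libraries of a group came from separate animals, so that p-values measure the spread between these samples, which may be technical. The extraction text speaks of sperm where titles and sources name testis, and markers of Leydig cells, Sertoli cells and every germ cell stage were all present.

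Muscarinic receptors are G protein-coupled receptors for acetylcholine. The M3 receptor signals through Gq proteins to phospholipase C beta. This enzyme cleaves a membrane lipid, and its products open intracellular calcium stores and switch on protein kinase C. Other members of the family, such as M4, act through Gi proteins and lower cyclic AMP. In the testis, germ cells develop between Sertoli cells inside the seminiferous tubules, while Leydig cells, which make testosterone, lie between the tubules next to resident macrophages, which secrete scavenger and complement proteins.

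Values were deposited as FPKM, a count of fragments scaled to the length of the transcript and to the mapped fragments of the library. A gene was tested when its mean over the 15 libraries was 1 FPKM or more, which 14514 of 23510 gene IDs reached. Differences between groups are on the scale of log2(FPKM + 1), which understates the change of low genes, and a gene was called at a limma p-value adjusted to under 0.05 over all genes tested. The summed FPKM of the 15 libraries ranged from 470243 to 513817, the number of reads behind them is unknown, and relative depth taken from the lowest values lay between 0.988 and 1.011 in the 6 libraries compared. The median difference over all genes was -0.040 on the log2 scale, and 8802 genes (60.6%) were lower against 5710 (39.3%) higher. Across 13364 genes the difference went with the GC content of the transcript (Spearman rho -0.376 across genes, which share the same 6 libraries and are not independent replicates). The part of GC content in the results was not tested beyond the values given with the GC trend removed.

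A single gene was called in M3 against MNC, Cd5l, which was lower, and it made up 0.00689% of the genes tested. At an unadjusted p under 0.05 stood 1369 genes (9.43%), 471 (3.25%) higher and 898 (6.19%) lower, and the 3 values of one group did not overlap those of the other in 2479 genes (17.1%). M3 replicate 3 stood apart from the other M3 libraries and close to the M5 libraries in part of its genes, as described further on. Without it no gene was called (0% of the genes tested), 856 genes (5.9%) were at an unadjusted p under 0.05, 325 (2.24%) higher and 531 (3.66%) lower, and the median over all genes was -0.034. MNC replicate 1 also stood apart, with 236 genes more than 1 log2 unit from both other MNC libraries, against 126 for MNC replicate 2 and 109 for MNC replicate 3. Where leaving out M3 replicate 3, MNC replicate 1 or M3 replicate 1 moved a list median given below by over 1.5 times, at least 1 such value is given beside it.

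The targeted receptor gene was hardly detected in any group. Chrm3 stood at 0.08, 0.04 and 0.11 FPKM in the M3 libraries and at 0.05, 0.01 and 0.05 FPKM in the MNC libraries, and the groups overlapped only between the lowest M3 value and the 2 highest MNC values. The means were 0.0767 ± 0.0351 (SD, n = 3) and 0.0367 ± 0.0231 FPKM (SD, n = 3), so that the transcript was not lower in the knockdown libraries (log2 difference 0.05, exact permutation test, two-sided, p = 0.3, where the smallest p that 3 against 3 libraries allow is 0.1). Without M3 replicate 3 the log2 difference was 0.03 (exact permutation test, p = 0.6). At values this close to 0 a lower transcript level was not detectable, and the M3 knockdown could not be checked at the RNA level. The libraries are therefore named by their label.

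Among the other receptors of the family, Chrm1, Chrm2 and Chrm5 stayed under 0.5 FPKM in all 6 libraries. Chrm1 stood at 0.13, 0.17 and 0.07 FPKM in the M3 libraries and 0.1, 0.11 and 0.11 FPKM in the MNC libraries (exact permutation test, p = 0.7), Chrm2 at 0.02, 0.04 and 0.06 against 0.04, 0 and 0.01 FPKM (exact permutation test, p = 0.3) and Chrm5 at 0.28, 0.21 and 0.2 against 0.43, 0.23 and 0.43 FPKM (exact permutation test, p = 0.2). Chrm4, the Gi-coupled M4 receptor on chr2:91922189-91929835, was the one muscarinic receptor that reached the filter. It was measured at 3.97, 4.06 and 2.67 FPKM in the M3 libraries and at 4.45, 5.01 and 5.1 FPKM in the MNC libraries, and the groups did not overlap. The log2 difference was -0.37 ± 0.14 (SE), which did not pass the test (adjusted p = 0.518; exact permutation test, p = 0.1, the smallest possible). The lowest of the M3 values was that of replicate 3, and the M5 libraries lay lower still, at 2.24, 2.05 and 2.29 FPKM.

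Cd5l was the gene with the clearest difference. It lies on chr3:87357881-87371074 (GRCm38) and encodes a scavenger protein secreted by tissue macrophages. In the M3 libraries it was measured at 0.12, 0.06 and 0.2 FPKM, in the MNC libraries at 4.32, 4.88 and 3.96 FPKM, and every M3 value was far below every MNC value. The means were 0.127 ± 0.0702 (SD, n = 3) and 4.39 ± 0.464 FPKM (SD, n = 3), a 34.6-fold lower mean level, and the log2 difference was -2.26 ± 0.11 (SE) with an adjusted p of 0.00512. Cd5l was also at 2.55, 4.16 and 4.22 FPKM in the M1 libraries and 3.56, 4.89 and 4.87 FPKM in the M5 libraries, so that all 6 libraries of the other knockdowns were above all M3 libraries. The difference from M5 passed the test (-2.26 ± 0.143 (SE), adjusted p = 0.0119), while that from M1 did not (-2.02, adjusted p = 0.0801). The Con libraries varied, at 2.41, 0.63 and 3.67 FPKM. Without M3 replicate 3 the difference from MNC was of the same size, -2.30, with an adjusted p of 0.0579 in 2 against 3 libraries. The adjusted p was also over 0.05 without M3 replicate 2 (0.068), MNC replicate 1 (0.0563) or MNC replicate 3 (0.0504), and it was 0.0123 without M3 replicate 1 and 0.0114 without MNC replicate 2.

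The sequence upstream of Cd5l is shown beside those of Stat2 and Isg15, 2 interferon-stimulated genes that were also lower in the M3 libraries. Each line gives the 250 bases before the start of the gene, 5′ to 3′ on the strand of the gene, from RefSeq (GRCm38.p6), at chr3:87357631-87357880 on the plus strand for Cd5l, chr10:128270248-128270497 on the plus strand for Stat2 and chr4:156200819-156201068 on the minus strand for Isg15. Capitals mark the motif GAAANNGAAA, the core of the interferon-stimulated response element, searched on both strands with overlapping matches allowed.
Cd5l: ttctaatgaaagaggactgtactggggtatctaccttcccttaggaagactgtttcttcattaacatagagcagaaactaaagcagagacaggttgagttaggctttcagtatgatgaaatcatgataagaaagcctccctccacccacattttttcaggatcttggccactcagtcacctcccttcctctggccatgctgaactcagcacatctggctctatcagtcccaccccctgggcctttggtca
Stat2: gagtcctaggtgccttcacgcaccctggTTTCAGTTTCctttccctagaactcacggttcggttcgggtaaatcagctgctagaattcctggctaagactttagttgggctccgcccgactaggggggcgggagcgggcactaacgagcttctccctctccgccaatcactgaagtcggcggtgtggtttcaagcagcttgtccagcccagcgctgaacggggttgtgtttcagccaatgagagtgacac
Isg15: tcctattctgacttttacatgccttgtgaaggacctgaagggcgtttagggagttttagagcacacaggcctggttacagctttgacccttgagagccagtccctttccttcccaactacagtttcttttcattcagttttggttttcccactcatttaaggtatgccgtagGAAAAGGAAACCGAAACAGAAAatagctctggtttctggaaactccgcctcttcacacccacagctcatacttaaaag
The window of Cd5l held no match, that of Stat2 held 1 match on the opposite strand 222 bases before the start, and that of Isg15 held 3 overlapping matches, the first 78 bases before the start. Over the 300-base promoter windows in RefSeq, 1131 of 32851 (3.44%) held the motif, as did 380 of the 10940 tested genes with a window (3.47%). Of the interferon-stimulated genes tested, 30 had a window and 18 of these (60%) held it. A match describes letters only and was not set against the values.

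**Figure D1:**
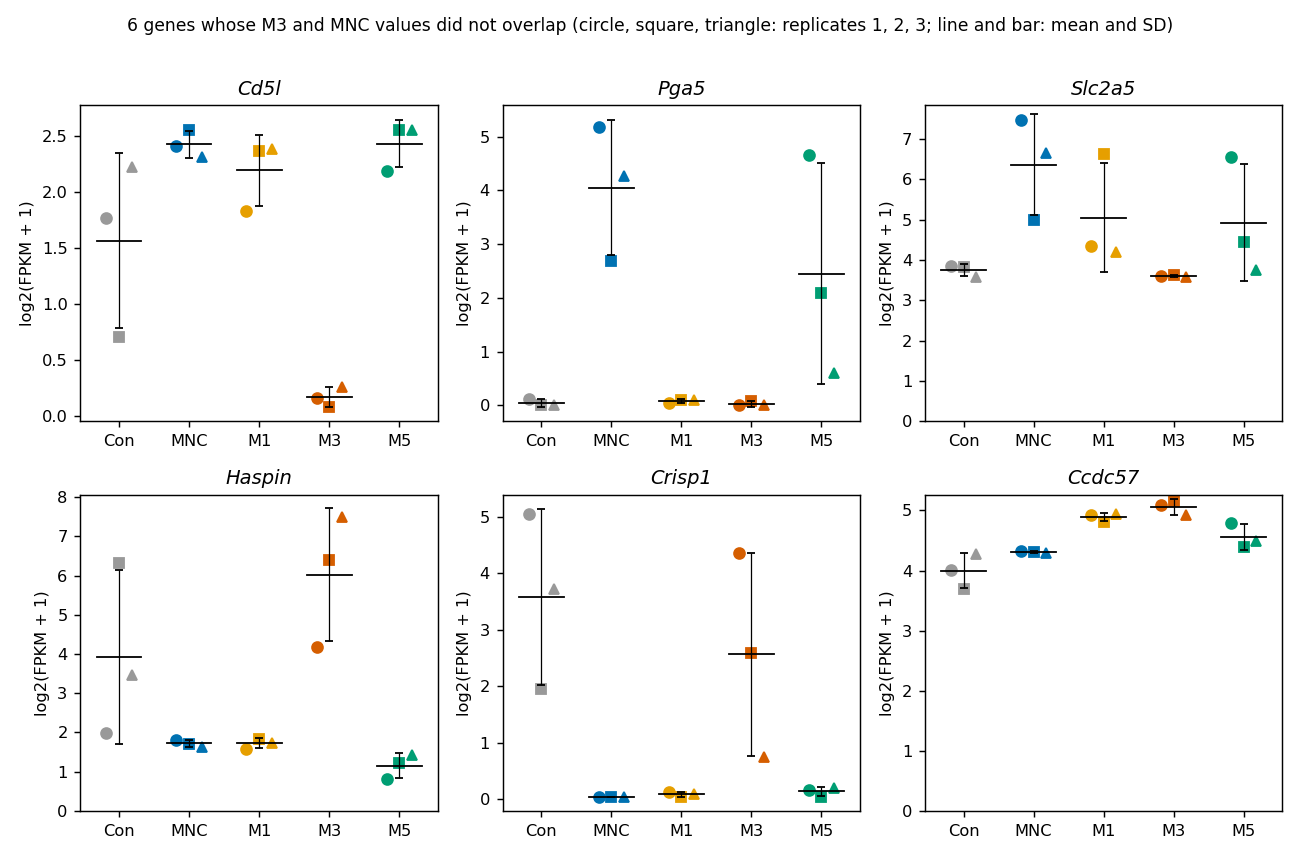
Level of 6 genes in each of the 15 libraries, in 5 groups on the x axis, on the scale of log2(FPKM + 1). Points are libraries, and bars give the mean and SD of the 3 libraries of a group. Cd5l is near 0 in all 3 M3 libraries, Pga5 and Slc2a5 are high and spread in MNC, Haspin and Crisp1 are high and spread in M3, and Ccdc57 is tight in both.

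The markers of macrophages pointed the same way as Cd5l. Of 23 tested genes of the list (Cd5l among them), 21 were lower and 2 higher in M3, with a median of -0.519 against -0.040 over all genes, and 8 (34.8%, against 6.19% of all genes) were lower at an unadjusted p under 0.05. C1qc, a chain of the first complement component, was measured at 9.15, 12.9 and 11.4 FPKM in the M3 libraries and 30.7, 15.2 and 16.9 FPKM in the MNC libraries, without overlap (log2 difference -0.80 ± 0.26 (SE), adjusted p = 0.518). Csf1r, the receptor of the macrophage growth factor CSF1, stood at 3.02, 3.76 and 3.47 against 9.05, 4.26 and 4.68 FPKM (log2 difference -0.60 ± 0.25 (SE)). Both were lower without overlap and neither passed the test over all genes. In whole tissue, fewer cells of a type and less RNA per cell cannot be told apart.

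The size of the macrophage difference depended on the library. The mean log2 level of the list was 2.05, 2.50 and 2.37 in the M3 libraries and 3.17, 2.62 and 2.62 in the MNC libraries, so that M3 replicate 1 was lowest and MNC replicate 1 highest, while the other 4 libraries lay between 2.37 and 2.62. The summed level ranged from 155 to 243 FPKM in M3 and from 232 to 431 FPKM in MNC, and the sums of the groups overlapped. The median of the list was -0.480 without M3 replicate 3, -0.311 without MNC replicate 1 (19 genes lower, 5 of them at an unadjusted p under 0.05) and -0.246 without M3 replicate 1. Against other groups the medians of the M3 libraries were -0.178 (M1), -0.734 (M5) and 0.015 (Con).

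Interferon-stimulated genes, which interferon receptors switch on, were likewise mostly lower. Of 60 genes in the list 41 were tested, and 36 were lower and 5 higher (60.6% of all genes were lower). The median was -0.278, and 13 (31.7%, against 6.19% of all genes) were lower at an unadjusted p under 0.05, with none higher. Irf7, a transcription factor that amplifies the response, was measured at 2.4, 3.4 and 2.39 FPKM in the M3 libraries and 12.1, 8.28 and 5.87 FPKM in the MNC libraries (log2 difference -1.35 ± 0.24 (SE), adjusted p = 0.518). Ifi27l2a stood at 3.43, 3.75 and 4.94 against 23.1, 10.1 and 9.76 FPKM (log2 difference -1.51 ± 0.32 (SE)). Both were lower in each M3 library than in any MNC library, and neither passed the test. Stat2, whose upstream sequence holds 1 match to the motif, stood at 2.28, 3.76 and 2.93 against 7.06, 5.17 and 5.19 FPKM (log2 difference -0.78 ± 0.17 (SE)). Isg15, a ubiquitin-like protein, stood at 1.07, 2.27 and 1.63 against 5.24, 3.87 and 2.38 FPKM (log2 difference -0.84 ± 0.26 (SE)). The 2 genes shown with their upstream sequence did not overlap between groups either. The mean log2 level of the list was 1.89, 2.43 and 2.25 in the M3 libraries and 2.93, 2.49 and 2.39 in the MNC libraries, so that M3 replicate 2 overlapped the MNC libraries. The median of the list was -0.392 without M3 replicate 3, with 8 genes lower at an unadjusted p under 0.05, -0.193 without MNC replicate 1, with 9, and -0.205 without M3 replicate 1. It was near 0 against M1 (-0.003), -0.688 against M5 and 0.371 against Con, so that the direction turned with Con as the reference.

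Genes of antigen presentation, complement and chemokines were lower in the majority, with few of them at an unadjusted p under 0.05. Their counts stand beside 60.6% lower among all genes tested, and 6.19% lower at an unadjusted p under 0.05. For class II presentation, 5 of 6 tested genes were lower (median -0.610, or -0.148 without MNC replicate 1) and none was at an unadjusted p under 0.05. Cd74, the invariant chain of class II, illustrated the spread, at 45.2, 86.97 and 54.2 FPKM in the M3 libraries and 174, 70.5 and 89.7 FPKM in the MNC libraries, where the groups overlapped. Of 21 tested class I genes, 17 were lower (median -0.253, or -0.102 without M3 replicate 1), 4 of them and 2 higher genes at an unadjusted p under 0.05. Nlrc5, the transcription factor of class I genes, stood at 1.78, 2.59 and 1.13 against 6.14, 4.51 and 4.25 FPKM (log2 difference -1.09 ± 0.22 (SE)), and H2-T23, a nonclassical class I gene, at 7.64, 8.58 and 6.78 against 27.9, 12.2 and 12.9 FPKM (log2 difference -1.01 ± 0.30 (SE)). H2-D1, a classical class I gene, was by contrast higher in each M3 library, at 41.1, 54.4 and 47.5 against 39.5, 38.9 and 32.4 FPKM (log2 difference 0.36 ± 0.12 (SE)). Without MNC replicate 1 the median of the class I list was 0.010, with 10 of 21 genes lower. Class I genes have near-identical copies, between which reads can be split. Among 16 complement genes 13 were lower (median -0.263), and 10 without MNC replicate 1 (median -0.146), which is near the 60.6% of all genes in the 6 libraries. Among 22 chemokine and cytokine genes 19 were lower (median -0.214), and 15 without MNC replicate 1 (median -0.104) or M3 replicate 1 (median -0.071). Of 9 markers of T, B and NK lymphocytes 7 were lower, with a median of -0.165 that was -0.046 without MNC replicate 1, -0.037 without M3 replicate 1 and -0.303 without M3 replicate 3.

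**Figure D2:**
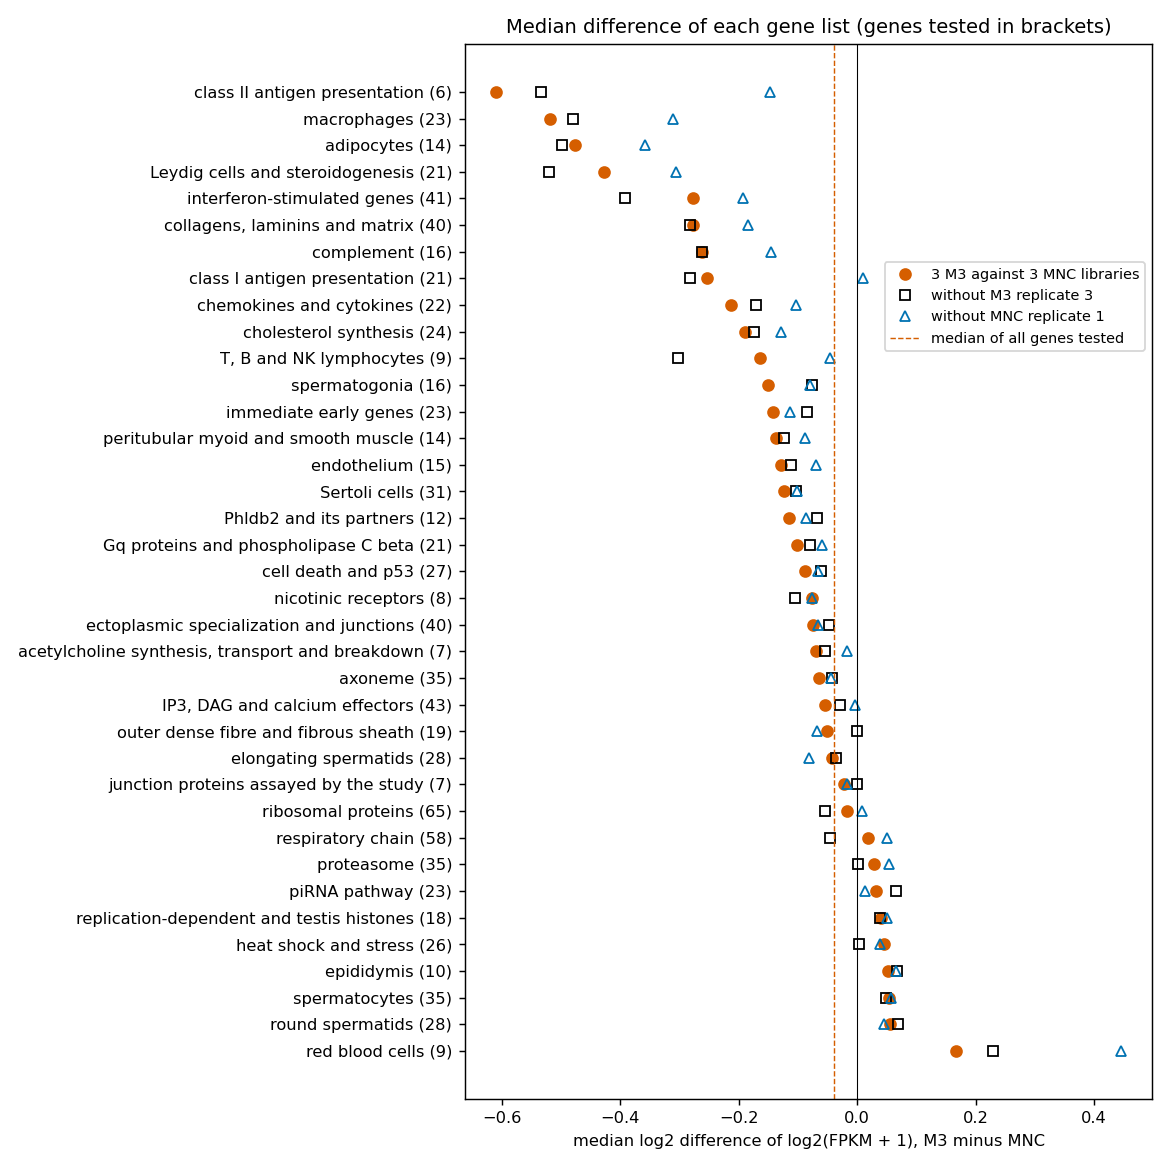
Median log2 difference, M3 minus MNC, of each gene list with 5 or more tested genes (x axis, log2 units). Orange points use all 6 libraries, black squares leave out M3 replicate 3, blue triangles leave out MNC replicate 1, and the dashed line is the median over all genes (-0.040). Class II genes, macrophages, adipocytes and Leydig cells lie lowest, and spermatocyte and spermatid lists lie near 0.

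Leydig cell and steroidogenic genes were lower in 19 of 21 tested members (median -0.427). At an unadjusted p under 0.05, 4 genes (19%) were lower, and 0 without MNC replicate 1. Over all genes, 60.6% were lower, and 6.19% were lower at an unadjusted p under 0.05. In the other direction 39.3% were higher, and 3.25% were higher at an unadjusted p under 0.05. The counts of this and the later lists stand beside these shares. Hsd3b6, a hydroxysteroid dehydrogenase of adult Leydig cells, was measured at 5.75, 16.3 and 17.7 FPKM in the M3 libraries and 30.4, 20.9 and 34.1 FPKM in the MNC libraries (log2 difference -1.15 ± 0.41 (SE), adjusted p = 0.518). Cyp17a1, which turns progestogens into androgens, stood at 53.7, 159 and 140.3 against 206, 240.2 and 165 FPKM (log2 difference -0.91 ± 0.40 (SE)). Lhcgr, the receptor of luteinizing hormone, stood at 1.57, 4.02 and 3.47 against 9.13, 6.14 and 4.15 FPKM (log2 difference -0.90 ± 0.33 (SE)). These 3 genes were lower in each M3 library than in any MNC library, and M3 replicate 1 was the lowest library in each. Star, which carries cholesterol into mitochondria, was at 7.28, 22.3 and 27.1 against 23.9, 32.95 and 35.1 FPKM, where M3 replicate 3 overlapped the MNC libraries.

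M3 replicate 1 carried most of the Leydig cell difference. The mean log2 level of the list was 3.68 in that library, 4.67 in each of the other M3 libraries and between 4.60 and 4.98 in the MNC libraries. The summed level was 870 FPKM in M3 replicate 1, 1948 and 2177 FPKM in replicates 2 and 3, and 1971 to 2525 FPKM in MNC. The median was -0.155 without M3 replicate 1, with 14 genes lower, -0.306 without MNC replicate 1 and -0.521 without M3 replicate 3. Cholesterol synthesis genes, whose product feeds steroidogenesis, were lower in 19 of 24 tested members (median -0.189, or -0.087 without M3 replicate 1), 6 of them at an unadjusted p under 0.05, and in 2 without M3 replicate 3. Among these were Dhcr7, a reductase of the last step of the synthesis (log2 difference -0.59 ± 0.18 (SE)), and Srebf2, the transcription factor of the pathway (-0.38 ± 0.12 (SE)).

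Most genes of other cell types outside the tubules were lower too. Collagens, laminins and matrix genes were lower in 37 of 40 tested members (median -0.277), 4 of them at an unadjusted p under 0.05 and none of them without M3 replicate 3. Nid2, a basement membrane protein, stood at 1.2, 3 and 1.5 FPKM in the M3 libraries and 7.32, 2.72 and 6.11 FPKM in the MNC libraries, where the groups overlapped, and Lamb2, a laminin chain, had a log2 difference of -0.44 ± 0.17 (SE). Peritubular myoid and smooth muscle genes were lower in 12 of 14 tested members (median -0.138), among them Myh11 (-0.30 ± 0.09 (SE)) and Acta2 (-0.22 ± 0.09 (SE)). The median of the list was -0.089 without MNC replicate 1 and -0.085 without M3 replicate 1, with 1 gene at an unadjusted p under 0.05 without MNC replicate 1 in place of 3. Endothelial genes were lower in 12 of 15 (median -0.128, or -0.069 without MNC replicate 1), with Eng at -0.39 ± 0.10 (SE) and Sox17 at 0.21 ± 0.07 (SE) in the other direction. Adipocyte markers, which the fat attached to a testis would carry, were lower in 12 of 14 (median -0.476, or -0.237 without M3 replicate 1), 6 of them at an unadjusted p under 0.05 and 1 without MNC replicate 1. Fabp4, a fatty acid carrier of adipocytes and endothelium, stood at 1.78, 3.75 and 3.67 against 13.6, 4.94 and 19.95 FPKM (log2 difference -1.63 ± 0.47 (SE)). The adipocyte mean log2 level was 2.54, 3.05 and 2.85 in M3 and 3.39, 2.97 and 3.68 in MNC, so that the groups overlapped. The part of the fat and of the other interstitial cells in the macrophage and Leydig cell differences was not tested.

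**Figure D3:**
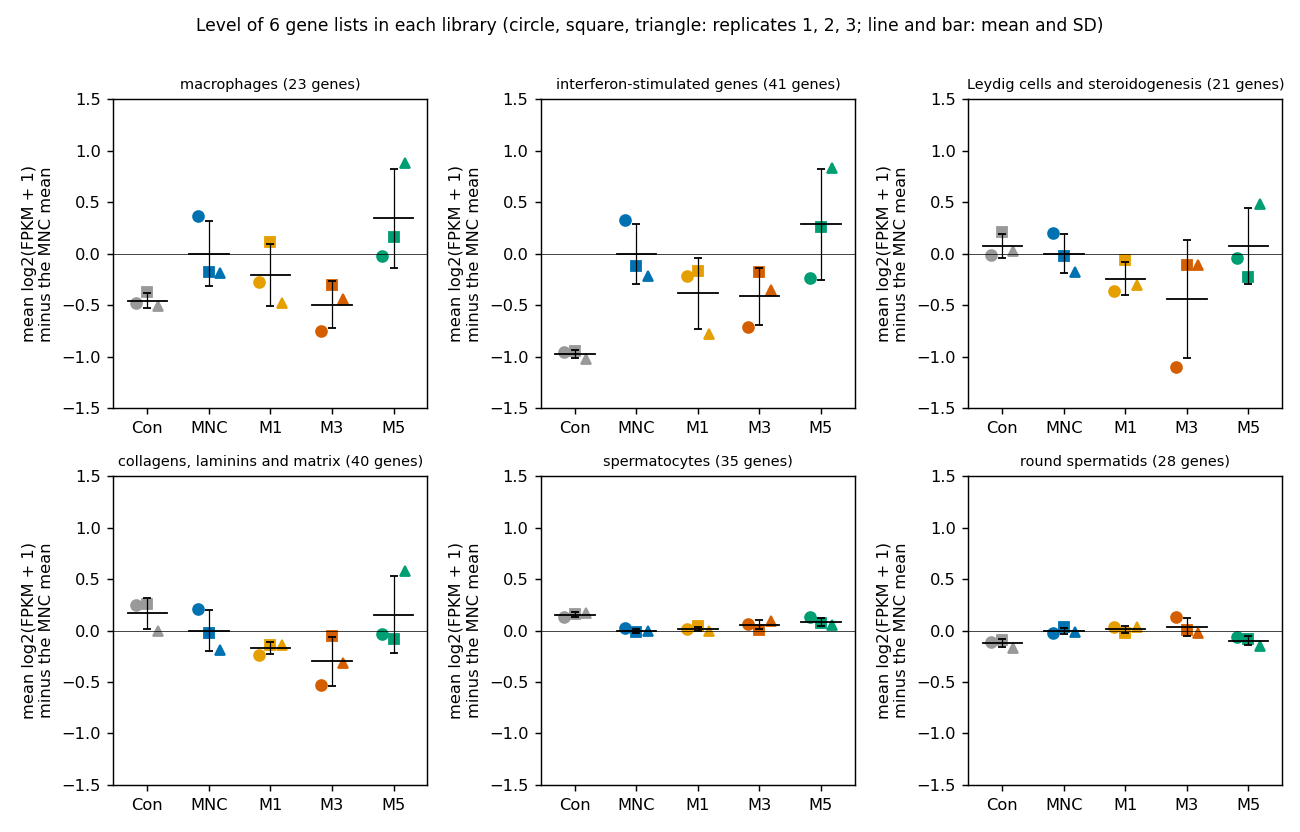
Mean log2(FPKM + 1) level of 6 gene lists in each library, given as the difference from the mean of the 3 MNC libraries (y axis, log2 units), with 1 point for each library and the mean and SD of each group. M3 replicate 1 is lowest of the M3 libraries for macrophages, interferon-stimulated genes and Leydig cells, MNC replicate 1 is highest of the MNC libraries for these, and the 2 germ cell lists stay near 0.

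In the tubules, the lists of meiotic and postmeiotic germ cells lay near the median of all genes, as given below. The Sertoli cell and spermatogonial lists (medians -0.123 and -0.151) lay near the peritubular myoid and endothelial lists (-0.138 and -0.128). Of 31 tested Sertoli cell genes 23 were lower (median -0.123, or -0.070 without M3 replicate 1), 5 of them at an unadjusted p under 0.05. The 1 higher gene at this p was Cst9 (log2 difference 1.31 ± 0.44 (SE)), a larger difference than those of Trf and Espn below. Trf, the transferrin that Sertoli cells secrete, was measured at 4.48, 6.13 and 4.98 FPKM in the M3 libraries and 8.55, 7.35 and 8.86 FPKM in the MNC libraries (log2 difference -0.58 ± 0.12 (SE)), and Espn, an actin-bundling protein of the ectoplasmic specialization, had a log2 difference of -0.34 ± 0.09 (SE). Amh, the anti-Müllerian hormone of immature Sertoli cells, was at 0.82, 0.74 and 0.84 against 2.37, 1.6 and 0.94 FPKM. Each M3 value of Trf and of Amh was below each MNC value. Of 40 tested genes of the ectoplasmic specialization and the blood-testis barrier, the junctions between Sertoli cells and between Sertoli and germ cells, 30 were lower with a median of -0.074 (-0.047 without M3 replicate 3), and 2 lower and 1 higher were at an unadjusted p under 0.05. The 7 junction genes whose proteins the study assayed had a median of -0.022 (0.032 without M3 replicate 1), with 4 lower and none at an unadjusted p under 0.05. Phldb2, a microtubule-anchoring protein assayed in the study, was under the filter, at 0.71, 1 and 1.06 against 0.86, 0.87 and 0.63 FPKM. Of 16 genes of Phldb2 and its partners 12 were tested, and 11 were lower (91.7%, against 60.6% of all genes). The median was -0.116, or -0.068 without M3 replicate 3. At an unadjusted p under 0.05, 2 were lower and 1 higher, and 0 and 1 without M3 replicate 3. The mean log2 level lay between 2.308 and 2.446 in M3 and between 2.460 and 2.557 in MNC, without overlap.

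Genes of meiotic and postmeiotic germ cells had medians between -0.064 and 0.055, near that over all genes, while spermatogonial genes lay lower. Spermatocyte genes were higher in 22 of 35 tested members (median 0.053), 2 of them at an unadjusted p under 0.05. Sycp1, a protein of the synaptonemal complex, was measured at 59.3, 53.7 and 81.2 FPKM in the M3 libraries and 46.3, 51.2 and 41.7 FPKM in the MNC libraries (log2 difference 0.45 ± 0.16 (SE), adjusted p = 0.518). Round spermatid genes were higher in 18 of 28 (median 0.055). At an unadjusted p under 0.05, 3 (10.7%, against 3.25% of all genes) were higher. Among them were Zpbp2 (0.19 ± 0.06 (SE)) and Zpbp (0.17 ± 0.06 (SE)), which encode proteins of the acrosome. Without M3 replicate 1 the median was 0.001, with 14 of 28 lower. Genes of the piRNA pathway, which silences transposons in germ cells, were higher in 15 of 23 (median 0.031). At an unadjusted p under 0.05, 4 (17.4%, against 3.25% of all genes) were higher, and 1 without M3 replicate 3. The median was 0.066 without M3 replicate 3 and 0.014 without MNC replicate 1, and it turned to -0.004 without M3 replicate 1, with 12 of 23 lower. Tdrd12, a tudor domain protein of the pathway, had a log2 difference of 0.43 ± 0.15 (SE), and Ddx4, a germ cell RNA helicase, of 0.17 ± 0.06 (SE). Spermatogonial genes were lower in 11 of 16 (median -0.151), and in 9 without M3 replicate 3 (median -0.077), while the median was -0.080 without MNC replicate 1. Among them were Gfra1, the GDNF receptor of stem spermatogonia, which was higher (0.32 ± 0.12 (SE)), and Stra8, the meiotic entry factor, which was lower (-0.21 ± 0.07 (SE)). Elongating spermatid genes (28 tested) had a median of -0.042, which was -0.082 without MNC replicate 1 and -0.015 without M3 replicate 1 and turned to 0.024 with median centring. Genes of the axoneme, the microtubule core of the flagellum, had a median of -0.064 over 35 genes, which was 0.002 with median centring, -0.042 without M3 replicate 3 and -0.035 without M3 replicate 1. At an unadjusted p under 0.05, 5 axoneme genes (14.3%, against 6.19% of all genes) were lower and 0 higher. Only 1 was lower at this p without M3 replicate 3, as without MNC replicate 1. The mean log2 level of the list lay between 5.487 and 5.536 in M3 and between 5.548 and 5.590 in MNC, without overlap.

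In the pathway downstream of the receptor few genes stood out. Of 27 genes of Gq proteins, phospholipase C beta and their regulators, 21 were tested, 16 were lower and 5 higher (median -0.102, or -0.060 without MNC replicate 1), and 2 were lower at an unadjusted p under 0.05, with none without M3 replicate 3. Plcb2, a phospholipase C beta isoform of blood cells, was measured at 2.06, 2.38 and 2.05 FPKM in the M3 libraries and 2.93, 2.58 and 3.31 FPKM in the MNC libraries (log2 difference -0.31 ± 0.11 (SE), adjusted p = 0.518). Rgs2, which switches off Gq, stood at 3.62, 4.38 and 3.57 against 4.99, 5.93 and 4.6 FPKM (log2 difference -0.34 ± 0.12 (SE), adjusted p = 0.518). No other gene of the list was at an unadjusted p under 0.05. The G protein subunits themselves, Gnaq (-0.11 ± 0.11 (SE)) and Gna11 (-0.06 ± 0.08 (SE)), lay near the median of all genes, and Gna11 turned positive with median centring and with the GC trend removed.

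Of 54 genes of inositol trisphosphate, diacylglycerol and calcium effectors 43 were tested, 27 were lower and 16 higher (median -0.054, or 0.012 with median centring and -0.003 without MNC replicate 1), and a single one was at an unadjusted p under 0.05. This was Calm2, a calmodulin gene, at 444, 453 and 448 FPKM in the M3 libraries and 385, 366 and 431 FPKM in the MNC libraries (log2 difference 0.19 ± 0.07 (SE), adjusted p = 0.518). Itpr1, the inositol trisphosphate receptor, had a log2 difference of -0.09 ± 0.10 (SE). Immediate early genes, which calcium and kinase signals induce within minutes, were lower in 20 of 23 (median -0.142, or -0.085 without M3 replicate 3), 2 of them at an unadjusted p under 0.05 and none without M3 replicate 3. Egr1 stood at 1.84, 1.8 and 1.6 against 2.41, 3.17 and 2.06 FPKM (log2 difference -0.36 ± 0.13 (SE)), and Nr4a3 had a log2 difference of -0.34 ± 0.14 (SE). Genes of acetylcholine synthesis, transport and breakdown had 5 of 7 members lower (median -0.070, or -0.018 without MNC replicate 1, and none at an unadjusted p under 0.05). Among nicotinic receptor genes, the ion channel receptors of acetylcholine, 6 of 8 were lower (median -0.077), and Chrne, the epsilon subunit, was at 17.4 ± 0.878 FPKM (SD, n = 3) in M3 against 20.2 ± 0.176 FPKM (SD, n = 3) in MNC.

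Further lower differences were ranked among genes with a symbol at an unadjusted p under 0.05 whose groups did not overlap, and the 12 largest included several genes that were high and widely spread in the MNC libraries. Pga5, a pepsinogen gene on chr19:10668957-10678071, was listed at 0, 0.06 and 0 FPKM in the M3 libraries and at 35.5, 5.48 and 18.3 FPKM in the MNC libraries (log2 difference -4.03 ± 0.58 (SE), adjusted p = 0.357). Slc2a5, the fructose transporter GLUT5 on chr4:150119344-150144168, was steady in M3 at 11.1, 11.3 and 10.99 FPKM and spread in MNC at 176, 30.8 and 98.98 FPKM (log2 difference -2.77 ± 0.57 (SE), adjusted p = 0.518). Eno1, the glycolytic enolase on chr4:150236708-150248879, stood at 3.52, 4.34 and 0.7 against 129, 10.04 and 43.95 FPKM (log2 difference -3.54 ± 0.90 (SE)). MNC replicate 1 was the highest MNC library in all 3, as in 9 of these 12 genes. Pga5 was also high in M5 replicate 1, with M5 at 24.3, 3.29 and 0.51 FPKM, and at or below 0.09 FPKM in every M1 and Con library. Crtam, a surface receptor of activated lymphocytes, stood at 0.97, 1.18 and 1.07 FPKM in M3 and 19.9, 3.05 and 10.3 FPKM in MNC. Every Con, M1 and M5 library of Crtam lay between 0.86 and 1.3 FPKM, so that MNC alone was high. Phc2, a polycomb protein, stood at 3.17, 2.89 and 1.7 FPKM in M3 and 30.8, 6.19 and 17.6 FPKM in MNC. Its M1 libraries were at 5.31, 16.2 and 4.66 FPKM. Crtam and Phc2 followed the same order of MNC libraries as Slc2a5.

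Hmga1b, Park7, H2-T22, Pfdn6, Rps18 and 2310061I04Rik made up the rest of these 12 genes. Hmga1b, a chromatin protein gene, stood at 0.18, 0 and 1.15 FPKM in M3 and 37.2, 7.29 and 4.92 FPKM in MNC. It lay between 0.66 and 2.41 FPKM in every Con, M1 and M5 library. Its near-identical copy Hmga1 stood at 20.3, 22.9 and 24.2 FPKM in M3 and 9.35, 19.4 and 22.3 FPKM in MNC, in the other direction. Eno1 likewise has a copy, Eno1b, which stood at 0.13, 0.28 and 0.41 against 2.02, 0.56 and 3.97 FPKM in the same direction as Eno1, and reads can be split between such copies. Park7, an oxidative stress protein, stood at 1.21, 21.4 and 7.03 against 47.5, 28.7 and 48.9 FPKM. H2-T22, a nonclassical class I gene, stood at 4.81, 1.12 and 0.13 against 16.9, 9.15 and 8.16 FPKM. None of the 12 genes other than Cd5l passed the test.

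A further set of 14 genes with a symbol was under 1 FPKM in every M3 library and at 10 FPKM or more in at least 1 MNC library. MNC replicate 1 was the highest MNC library in 10 of them and MNC replicate 3 in 4. Mfn2, a mitochondrial fusion protein, was at 0.27, 0.18 and 0.16 FPKM in M3 and 3.71, 0.46 and 35.9 FPKM in MNC, and Klrb1, an NK cell receptor, at 0.22, 0.07 and 0.2 against 15.8, 1.96 and 0.33 FPKM. Mfn2 lay between 0.09 and 0.23 FPKM in every Con, M1 and M5 library, near the M3 values. Pga5, Pfdn6 and 2310061I04Rik belong to both sets. The others were Miip, Cbx7, Fbxo2, Gm2854, Sly, Gm20853, Gm21114, Gm20901 and Gm5923. Sly belongs to a multicopy family of the Y chromosome, between whose near-identical copies reads can be split. In the opposite direction 3 genes were under 1 FPKM in every MNC library and at 10 FPKM or more in at least 1 M3 library, Crisp1, Gm21477 and H2ac23.

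Higher differences were likewise spread between libraries. Haspin, a kinase of histone H3 in germ cells on chr11:73135484-73138294, was measured at 17.03, 83.3 and 179 FPKM in the M3 libraries and 2.5, 2.28 and 2.11 FPKM in the MNC libraries, and each M3 library was above all MNC libraries (log2 difference 4.30 ± 0.77 (SE), adjusted p = 0.518). Con replicates 2 and 3 were also high, so that the Con libraries stood at 2.95, 79.6 and 10.01 FPKM. The gene lies within Itgae, an integrin gene, and reads of the pair cannot be told apart where they overlap, while Itgae itself stood at 4.32, 4.39 and 5.2 against 4.46, 3.57 and 4.19 FPKM. P2rx5, an ATP-gated channel next to it, stood at 1.13, 4.47 and 8.48 against 0.47, 0.56 and 0.86 FPKM (log2 difference 1.56 ± 0.51 (SE)). In both neighbours M3 replicate 3 was the highest library.

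Crisp1, a secreted protein of the epididymis on chr17:40293758-40319207, was measured at 19.4, 5.03 and 0.68 FPKM in the M3 libraries and 0.03, 0.03 and 0.03 FPKM in the MNC libraries, and at 32.3, 2.86 and 12.2 FPKM in Con. Among 10 tested epididymal genes 6 were higher and 3 lower (median 0.052), with Cuzd1 at 8.31, 3.47 and 1.53 FPKM in M3 against 1.64, 1.44 and 1.1 FPKM in MNC and Rnase10 with a log2 difference of 0.64 ± 0.17 (SE). S100a9, a calcium-binding protein of neutrophils, was at 2.99, 0.88 and 6.17 against 0.09, 0.2 and 0.08 FPKM. The other 2 tested genes of the list of neutrophils and mast cells were lower. They were Lcn2, also on the epididymal list, and Kit, also on the spermatogonial list. The median over the 3 was -0.187, or -0.084 without M3 replicate 3 and -0.045 without MNC replicate 1. Under the filter, S100a8 stood at 2.86, 0.79 and 4.26 against 0.14, 0 and 0.26 FPKM. Ngp stood at 0.61, 0.18 and 0.72 against 0, 0.04 and 0.07 FPKM. Csf3r overlapped, at 0.41, 0.43 and 0.26 against 0.82, 0.28 and 0.6 FPKM. The summed level of the list ranged from 80.2 to 266 FPKM in M3 and from 221 to 321 FPKM in MNC. Hemoglobin genes were highest in M3 replicate 3. Hba-a1 stood at 14.7, 43.6 and 84.3 FPKM in M3 and 14.9, 13.8 and 14.5 FPKM in MNC, and Hbb-b1 had a log2 difference of 1.94 ± 0.82 (SE), with 7 of 9 red blood cell genes higher. The median of these was 0.167, or 0.446 without MNC replicate 1 and 0.586 without M3 replicate 1, and the 2 genes at an unadjusted p under 0.05 became 0 without M3 replicate 3. The 3 M3 libraries thus differed among themselves in these transcripts, of which replicate 1 was highest for Crisp1 and Cuzd1 and replicate 3 for S100a9 and Hba-a1. Their part in the other differences was not tested.

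Slc35g2, a solute carrier gene on chr9:100549125-100571085, was more even between replicates. It stood at 5.11, 3.38 and 2.89 FPKM in M3 and 0.81, 0.88 and 0.72 FPKM in MNC (log2 difference 1.38 ± 0.18 (SE), adjusted p = 0.35). The Con, M1 and M5 libraries of Slc35g2 lay between 0.93 and 3.81 FPKM, so that they too were above every MNC value. Cst9, a gene of the cystatin family and of the Sertoli cell list, stood at 123, 76.3 and 138 against 71.95, 21.8 and 51.3 FPKM (log2 difference 1.31 ± 0.44 (SE)). H2-T10, a nonclassical class I gene, was listed at 0 in every MNC library and stood at 0.19, 3.8 and 3.28 FPKM in M3, with 1 of the M3 libraries near 0. It was above 0 in every Con, M1 and M5 library too, between 0.24 and 3.49 FPKM. Tmem254c stood at 1.56, 1.82 and 4.68 against 0.16, 0.23 and 0.13 FPKM, while its copy Tmem254b stood at 2.45, 2.28 and 2.33 against 4.15, 5.7 and 3.76 FPKM in the other direction. In the other groups Tmem254c stood at 3.09, 2.39 and 0.27 FPKM (M1), 2.74, 3.7 and 3 FPKM (M5) and 3.53, 4.51 and 0 FPKM (Con). Gm10375, Zfp985, AY761185, Hbb-b2 and the genes described above completed the 12 largest higher differences at an unadjusted p under 0.05 without overlap, and none of these passed the test over all genes.

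Smaller differences with tight replicates were led by Ccdc57, a centrosomal protein gene on chr11:120826529-120932926. It was measured at 33.1, 34.8 and 29.2 FPKM in the M3 libraries and 19.07, 18.8 and 18.6 FPKM in the MNC libraries, where the highest and lowest MNC values lay within 1 FPKM of each other. The log2 difference was 0.75 ± 0.08 (SE) (adjusted p = 0.164), 0.82 (adjusted p = 0.105) without M3 replicate 3 and 0.86 (adjusted p = 0.0162) with the GC trend removed. The M1 libraries stood at 29.5, 26.97 and 29.6 FPKM, between the MNC values and the highest M3 value. Abcc3, an organic anion exporter, was in the other direction at 17.9, 20.8 and 21.9 against 39.98, 32.9 and 32.7 FPKM (log2 difference -0.77 ± 0.11 (SE), adjusted p = 0.357). Psma3, a proteasome subunit, was at 83.1, 80.2 and 85.6 against 64.9, 66.1 and 66.02 FPKM (log2 difference 0.33 ± 0.05 (SE), adjusted p = 0.44), and Mlkl, the executor of necroptosis, at 5.79, 6.69 and 5.17 against 9.64, 8.91 and 9.38 FPKM (log2 difference -0.59 ± 0.10 (SE)). Without M3 replicate 3 the genes of lowest p included Gstt4, Gstt2, Ddt and Derl3, which are neighbours on chromosome 10. Gstt4, a glutathione transferase, stood at 403, 390.3 and 341 FPKM in M3 and 268, 275 and 276 FPKM in MNC, and Ddt, a tautomerase, at 275, 279 and 208 against 155, 164 and 191 FPKM, with replicate 3 the lowest M3 library in both. Rpl38, a ribosomal protein gene, was lower in M3 replicates 1 and 2 and higher in replicate 3, at 223, 233 and 369 against 284, 283 and 286 FPKM.

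The genes with the largest differences were neighbours in several stretches of the genome, which were picked after the values had been seen and are given as a description. On chr4:147822986-150909921, the stretch with Miip, Mfn2, Slc2a5, Eno1 and Park7, 27 of 31 tested genes were lower (median -0.47, or -0.32 without M3 replicate 3), and 11 (35.5%) were lower at an unadjusted p under 0.05. Fewer were lower at this p without M3 replicate 3. Fbxo6, an F-box protein gene, stood at 2.41, 2.91 and 0.84 FPKM in M3 and 5.71, 8.24 and 6.58 FPKM in MNC. Pgd, an enzyme of the pentose phosphate pathway, stood at 2.4, 4.08 and 0.34 against 14.5, 6.69 and 8.2 FPKM, and H6pd, its counterpart in the endoplasmic reticulum, at 0.44, 0.43 and 0.34 against 4.65, 1.51 and 2.49 FPKM. All 3 were lower in each M3 library than in any MNC library. High values of Slc2a5 were not limited to MNC, since the M1 libraries stood at 19.5, 97.3 and 17.3 FPKM and the M5 libraries at 92.5, 21.01 and 12.5 FPKM.

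On chr10:75636619-75937750, the stretch with Gstt4, Gstt2, Ddt and Derl3, all 12 tested genes were higher (median 0.26), 4 of them at an unadjusted p under 0.05. Without M3 replicate 3 there were 11 higher (median 0.46) and 9 (75%) higher at an unadjusted p under 0.05, against 2.24% of all genes. In that stretch Con replicate 3 was also high, at 311 FPKM for Ddt and 337 FPKM for Gstt4. Con replicates 1 and 2 were above every MNC value for Ddt (213 and 207 FPKM) and below for Gstt4 (219 and 196 FPKM). M3 replicate 3 was below every MNC library in part of the genes, among them Cabin1, Mif, Derl3 and Chchd10. On chr17:33909404-36146200, the major histocompatibility complex with Pfdn6 and Rps18, 67 of 88 tested genes were lower (median -0.33, or -0.27 without M3 replicate 3), 25 (28.4%) lower and 4 higher at an unadjusted p under 0.05. Without M3 replicate 3 fewer were lower at this p, and 0 were higher. Tubb5, at 16.9, 9.62 and 4.13 FPKM in M3, and Abcf1, at 39.9, 12.5 and 2.62 FPKM, were lowest in M3 replicate 3. Vars stood at 111, 15.2 and 1.62 FPKM in MNC, highest in MNC replicate 1. H2-T22, H2-T23, H2-T10 and H2-D1 lie in the same stretch.

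**Figure D4:**
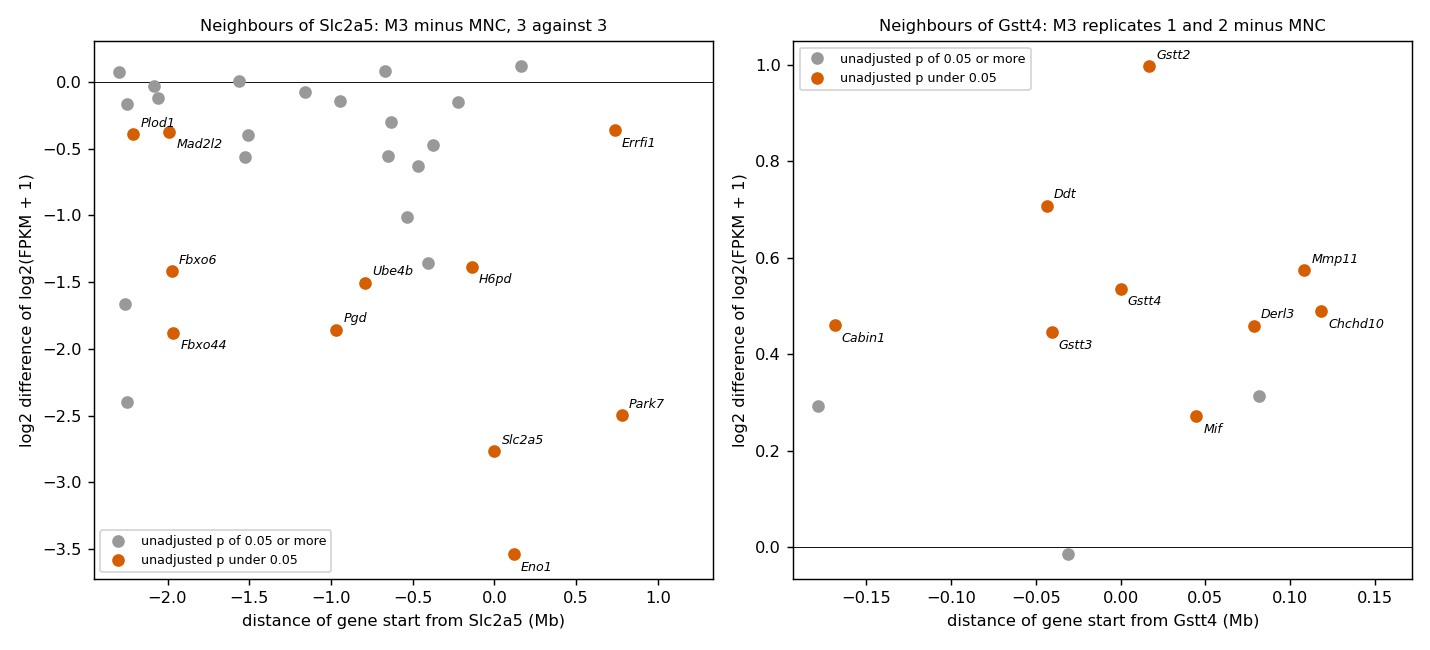
Log2 difference, M3 minus MNC, of tested genes (y axis, log2 units) by distance in Mb from the start of Slc2a5 on chromosome 4, with all 6 libraries, and from the start of Gstt4 on chromosome 10, with M3 replicates 1 and 2. Each point is a gene, in orange where its unadjusted p was under 0.05. Points near Slc2a5 lie mostly below 0 and points near Gstt4 mostly above 0.

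M3 replicate 3 shared part of its transcripts with the M5 libraries. Over the tested genes its correlation on the log2 scale was 0.9841 with M5 replicate 2, 0.9797 with M5 replicate 1 and 0.9704 with M5 replicate 3, against 0.9794 and 0.9766 with M3 replicates 2 and 1, which had 0.9866 with each other. These are descriptions over the same 14514 genes. In M3 replicate 3, 54 genes lay more than 1 log2 unit outside the range of the 11 libraries of MNC, M1, Con and the rest of M3, and 39 of these lay within 0.5 of the M5 range. This count was not made for other libraries. Of 202 genes more than 1 log2 unit from both other M3 libraries, 42.6% lay within the M5 range. The same share was 37.3% of 75 genes for M3 replicate 2, 14.2% of 134 for M3 replicate 1 and 42.1% of 38 for Con replicate 1. H2ac23, a histone H2A gene, was listed at 0, 0 and 19.06 FPKM in the M3 libraries, at 0 in every MNC, M1 and Con library and at 20.8, 22.7 and 28.7 FPKM in M5. Tmem89 was measured at 31.8, 27.3 and 0 FPKM in M3 and 40.7, 45.7 and 33.7 FPKM in MNC and was listed at 0 in every M5 library. Fabp3, a fatty acid carrier, stood at 22.4, 72.6 and 0 against 69, 46.5 and 52.95 FPKM, and at 0.84, 0 and 0 FPKM in M5. For these 3 genes the third M3 library stood with M5 and not with its own group. The label of the library was kept, and the reason was not tested.

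**Figure D5:**
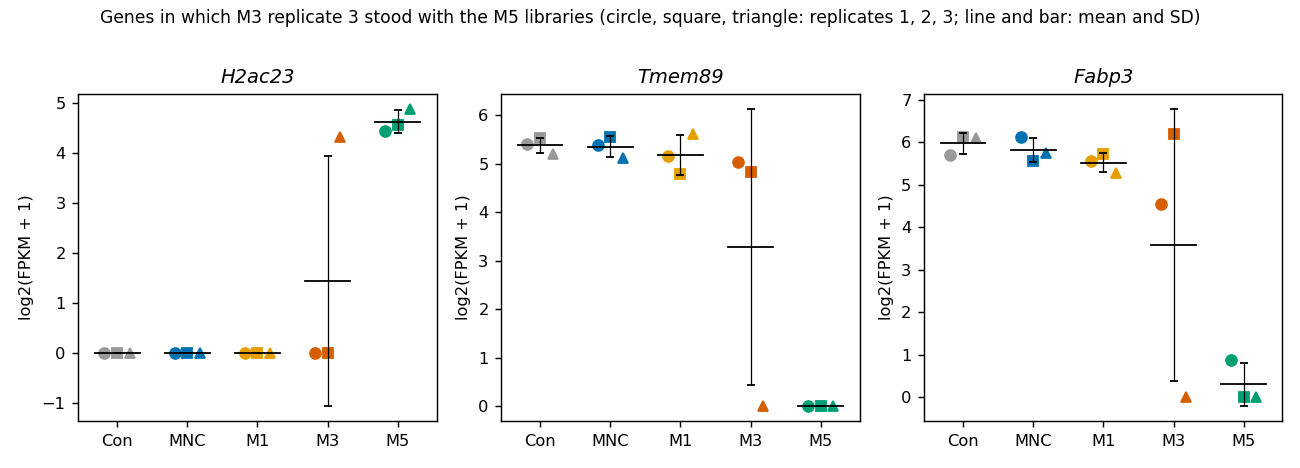
Level of H2ac23, Tmem89 and Fabp3 in each library on the scale of log2(FPKM + 1), by group, with 1 point for each of the 15 libraries and the mean and SD of each group. In all 3 genes M3 replicate 3 lies near the M5 points and away from the other 2 M3 libraries.

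The M3 libraries were compared with the other knockdowns to see where they differed from these too. Against M1 no gene was called by limma (0%), and 672 genes (4.63%) were at an unadjusted p under 0.05. Against M5, 2 genes were called (0.0138%), Cd5l and the unnamed transcript BGI_novel_G001799, and 2077 genes (14.3%) were at an unadjusted p under 0.05. The transcript stood at 14.6, 15.4 and 11.2 FPKM in M3, 48.9, 53.8 and 50.3 FPKM in M5 and 46.5, 26.4 and 33.9 FPKM in MNC, and its difference was -1.83 ± 0.12 (SE, adjusted p = 0.0119) from M5 and -1.29 ± 0.21 (SE) (adjusted p = 0.497) from MNC. Without M3 replicate 3, 188 genes were called against M5, 78 of them higher and 110 lower, while none was called without M3 replicate 2, M5 replicate 2 or M5 replicate 3. Other unnamed transcripts with tight replicates were BGI_novel_G001974, at 1.57, 2.05 and 1.25 FPKM in M3 and 0, 0.02 and 0 FPKM in MNC (log2 difference 1.37 ± 0.14 (SE), adjusted p = 0.164), and BGI_novel_G001978, at 3.83, 5.37 and 4.02 against 1.2, 1.12 and 1.32 FPKM (log2 difference 1.28 ± 0.13 (SE), adjusted p = 0.164).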

How the data were processed

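The authors deposited a table of FPKM per gene ID, made from reads aligned to mm10 (the same assembly as GRCm38) in 15 testis libraries. Read totals are unknown, and the authors' count-based test could not be repeated on FPKM. Gene symbols and positions were matched in RefSeq GRCm38.p6 for 21143 of the IDs (89.9%). The members and gene lists were chosen with earlier results of these data known. limma 3.58.1 (R 4.3.3) with a mean-variance trend was fitted on log2(FPKM + 1) to the 2 groups compared, with a pseudocount of 1, a filter at a mean of 1 FPKM over all libraries and Benjamini-Hochberg adjustment. Chrm genes were tested by exact permutation. The fit was tested on simulated data for M3 against MNC (14514 genes, with 200 of them shifted by 1 on the log2 scale). It called 86.3% of the shifted genes, and 5.4% of its calls were unshifted genes. Without M3 replicate 3 it called 76.8%. Genes were drawn independently with the spread that the fit itself had estimated, without library-wide departures or a GC trend. These shares therefore do not show which part of such differences would be called in the real libraries. Named were the called genes, the 12 largest differences in each direction at an unadjusted p under 0.05 without overlap, genes of lowest p without M3 replicate 3, genes under 1 FPKM in 1 group and at 10 or more in the other, and up to 4 members of each list. Neighbouring genes and near-identical copies were added after their values were seen. Alternatives were another pseudocount, filters, scalings, groups and controls, leaving out each library, and removal of the GC trend, the last chosen after seeing the data. Replicate numbers did not pair the samples (correlation of deviations from -0.122 to -0.025 between same-numbered M3 and MNC libraries). Some named genes are not reported here.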

Additional observations from a re-analysis of the deposited data

Results flagged for a closer look

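The M3 and M5 knockdowns, both compared with MNC, differed from each other in 2 genes by limma, which tests the difference between the knockdowns directly. Cd5l differed by -2.26 (M3 minus M5, log2 scale, adjusted p = 0.0119), with 0.12, 0.06 and 0.2 FPKM in M3 against 3.56, 4.89 and 4.87 FPKM in M5, lower in 3 of 3 M3 libraries. BGI_novel_G001799 differed by -1.83 (adjusted p = 0.0119), with 14.6, 15.4 and 11.2 FPKM in M3 against 48.9, 53.8 and 50.3 FPKM in M5, also lower in 3 of 3 M3 libraries. No gene was called between M3 and M5 without M3 replicate 2, M5 replicate 2 or M5 replicate 3.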

How the results depend on the processing

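Cd5l was the 1 gene called in M3 against MNC, and it stayed called with a pseudocount of 0.1, a filter at 0.1 FPKM or none, median centring, quantile normalization and a fit without the trend. The count was 0 with a filter at 5 FPKM, which drops Cd5l, and 0 with all 5 groups in one fit (Cd5l adjusted p = 0.0502). It was 2 with the GC trend removed (Cd5l and Ccdc57), and 431 (181 higher, 250 lower) for a ratio of group means of at least 2 with no test. The study's cutoffs (adjusted p of at most 0.001, absolute log2 of at least 1) gave 0 when put on the limma values. The study put them on another test, of read counts, so that this 0 does not repeat its result. Leaving out each replicate gave 0 to 14 genes, 14 without M3 replicate 1 (10 higher), 10 without MNC replicate 2 (1 higher) and 0 for the others. Without M3 replicate 3 the count of 0 became 1 with no filter, 2 with quantile normalization, 1 without the trend, 2 with the GC trend removed and 0 to 7 on leaving out a further replicate (7 without MNC replicate 2, and 6 without M3 replicate 1, where the 1 M3 library left is assumed to vary like MNC). M3 against M1 gave 1 with median centring and 0 to 5 on leaving out a replicate (5 without M3 replicate 1). M3 against M5 gave 6 with no filter, 4 with median centring and 0 to 188 on leaving out a replicate, 188 without M3 replicate 3. The causes were not tested.

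With a replicate block, which the numbers did not warrant, the count was 0 in M3 against MNC (Cd5l adjusted p = 0.429) and 0 in M3 against M5. With Con as the control, 3210 genes were called (1017 higher) and 2098 without M3 replicate 3 (737 higher). The log2 difference of Chrm3 lay between 0.03 and 0.37 in every alternative. Of 110 named genes, the direction turned with Con as the control for Zfp985 -0.94, Hbb-b2 -0.68, AY761185 -0.98, Crisp1 -1.01, Derl3 -0.091, Rpl38 0.055, Abcc3 1.37, Gm21477 -1.59, Miip 0.053, Mfn2 0.044, Gm2854 0.14, Sly 0.081, Gm20901 0.11, Chrm4 0.21, Calm2 -0.15, Nr4a3 0.096, Chrne 0.26, C1qc 0.036, Irf7 0.58, Stat2 0.15, Isg15 0.24, Nlrc5 0.15, H2-T23 0.89, Cd74 2.34, Sycp1 -0.037, Tbpl1 -0.018, Tdrd12 -0.056, Ddx4 -0.070, Cuzd1 -0.79, Hba-a1 -0.10, Hbb-b1 -0.43, Mlkl 0.58, Rps6 -0.069, Psma8 -0.027, Fbxo6 0.22, Hmga1 -0.036 and BGI_novel_G001974 -0.59. It turned with the GC trend removed for Rpl38 0.050 and Gna11 0.062, with median centring for Gna11 0.0042, and for Rpl38 without M3 replicate 1 (0.04) and without M3 replicate 2 (0.01), in a range from -0.32 to 0.04 on leaving out each replicate. Of 40 lists, 22 kept the sign of their median with Con as the control, 36 with the GC trend removed, 34 with median centring and 37 to 39 on leaving out a replicate. FPKM without read totals give no counting error, so that low genes such as Chrm3 and Cd5l carry an unknown one.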

Other observations

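Among gene groups of the cell's housekeeping, ribosomal protein genes (65 tested) had a median log2 difference of -0.018 between M3 and MNC, which turned positive with median centring and was -0.054 without M3 replicate 3, and respiratory chain genes (58 tested) had one of 0.019, which was -0.046 without M3 replicate 3 and 0.073 without M3 replicate 1. Proteasome genes were higher in 22 of 35 tested members (median 0.028, or 0.002 without M3 replicate 3), 2 of them at an unadjusted p under 0.05, among them Psma8, the germ cell subunit, with a log2 difference of 0.37. Heat shock genes (26 tested) had a median of 0.045 (0.003 without M3 replicate 3). Genes of cell death and p53 were lower in 20 of 27 (median -0.089), with Cdkn1a, a cell cycle inhibitor, at a log2 difference of -0.74. Rps6, a ribosomal protein gene, stood apart from its group at 0.84.

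The unnamed transcript BGI_novel_G001042 was listed at 0, 0 and 0.49 FPKM in the M3 libraries and at 4.87, 1.62 and 4.59 FPKM in the MNC libraries.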
